A study of Mus musculus with 26 samples.

Results

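The DNA replication genes are 44 mouse genes that encode the core machinery copying the genome: the origin recognition complex, the licensing factors, the MCM helicase, the proteins that activate it, the polymerases and primase, the sliding clamp with its loader, the single-strand binding protein RPA, the enzymes that finish the lagging strand, and ribonucleotide reductase. They were taken as a named list, 44 of the 21887 protein-coding genes with a place on a chromosome, picked by name and not by a measured value. Earlier results of these data were known when the list was chosen. Each gene was described by the H3K4me3 peaks lying within 1 kb of either of its ends in 2 deposited peak lists on mm10.

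The series compares early steps of B and T lymphocyte development. Early-B cells carried the Ebf1-/- genotype and an EBF1.ER construct delivered with the MigR1 vector, a fusion that restores the B lineage factor EBF1, and had been kept for 2 days on OP9 stromal cells with 4-O-hydroxy-tamoxifen and the cytokines IL-7, SCF and FLT3-L. The Ebf1-/- progenitors, which lack EBF1 and are the cells from which Early-B cells were made, had no construct named in their labels, and their culture is not given there. Each group has 2 H3K4me3 samples, with 2 input DNA samples each, but 1 peak list per group was used, so no value here has a replicate check, no test was made, and the depth behind the peaks is unknown. The other samples of the series, from microRNA, Ago2-bound and total RNA, are not analysed here.

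H3K4me3, the trimethyl mark on lysine 4 of histone H3, sits over the start of genes with an active or poised promoter. Replication starts when ORC, Cdc6 and Cdt1 load the MCM ring onto an origin, and the kinase of Cdc7 and Dbf4, together with Cdc45 and GINS, turns that ring into a moving helicase. Many of these genes are switched on by E2F factors when a cell enters the cycle, and lymphoid progenitors grown with IL-7 divide rapidly.

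The Early-B list had 48054 peaks over 83.3 Mb and the progenitor list 31414 peaks over 56.0 Mb, and a q above 0.05 was given to 33.2% of the Early-B and 33.4% of the progenitor peaks. Lineage genes were checked against the labels. Of 11 B lineage markers, 7 had an end peak in the Early-B list alone, Pax5 among them, and 4 in both. Of 8 stem and progenitor markers, 4 had one in the progenitor list alone and 4 in both. The 4 in the progenitor list alone were weak, with pileups from 14.9 at Erg to 25.3 at Gata2. The 4 in both had a median pileup ratio, Early-B over progenitor, of 0.314. But at listed starts 1 of 7 was in the progenitor list alone and 6 in both. Erg, one of the stem markers, went the other way there, with a peak of 6622 bp and pileup 39.0 in Early-B cells and 497 bp and pileup 14.9 in progenitors. All 5 pan-leukocyte markers had an end peak in both lists. Of 8 T lineage markers, 4 were in both lists, 1 in the progenitor list alone and 3 in neither. Of 8 myeloid and erythroid markers, 2 were in both, 3 in the progenitor list alone and 3 in neither. Of 8 genes of other tissues, 6 were in neither list and 2 in the Early-B list alone, Umod with pileup 38.7 and Nphs1 with pileup 11.1. Of 10 stromal markers, 6 were in the Early-B list alone, among them Sparc and, with a weak peak of pileup 10, Col3a1. The other 4 were in both lists. Of these, Col1a1 and Col1a2 had the higher pileup in Early-B cells. Thy1 and Pdgfrb had the lower one, 11.1 and 20.6, against 55.3 and 34.7 in progenitors. The summed pileup of the stromal markers was 234 over 10 genes for Early-B cells and 124 over 4 genes for progenitors. The part of the stromal markers in the values below was not tested. Ebf1 itself had a peak in both lists, 9893 bp long in Early-B cells and 9960 bp in progenitors; a histone mark at its start checks neither the deletion nor the construct.

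Nearly every DNA replication gene carried H3K4me3 in both cell states, and none was marked in one state alone. A peak lay at a gene end in both lists for 42 of the 44 genes, in the Early-B list alone for 0, in the progenitor list alone for 0 and in neither for Orc1 and Rfc1. Over all protein-coding genes the shares were 53.5% in both, 5.75% in Early-B alone, 2.34% in progenitors alone and 38.4% in neither. Orc1 and Rfc1 were marked too, inside the gene and away from its annotated end, as described below. For 37 of the 44 genes a promoter is listed in the RefSeq table, and at 37 of 37 a peak lay within 1 kb of a listed start in both lists, against 55.0% of the 17492 protein-coding genes with a listed start. The genes named without a listed start are Prim2, Rfc2, Gins1, Gins2, Gins4, Mcm4 and Pole. The Early-B peak was met by a progenitor peak at 42 of 42 genes with end peaks, and the progenitor peak by an Early-B one likewise, at a shared stretch of at least 1 bp. Over all protein-coding genes with an end peak, 91.1% of Early-B and 95.9% of progenitor peaks were met. With an overlap of at least 50% of both peaks, 41 of 42 were met in each direction. The shares over all genes were then 80.8% of Early-B and 85.9% of progenitor peaks.

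Letters known to be bound by E2F factors were frequent in the promoters of these genes. The search took 4 strings of 8 letters, TTTCCCGC, TTTGGCGC, TTTCGCGC and TTTGCCGC, on both strands of the RefSeq promoters of GRCm38.p6, from 250 bases before to 50 bases after each listed start. At least 1 of them was found in 15 of 37 DNA replication genes (40.5%), and in 7 of 33 other replication genes (21.2%), 2 of 25 proteasome subunit genes (8.0%), 4.93% of the 9612 protein-coding genes with a start peak in both lists and 3.29% of all 17492 genes. The 15 genes were Orc1, Orc3, Cdc6, Cdt1, Mcm3, Mcm5, Mcm6, Mcm7, Gins3, Pola1, Pold1, Pold3, Pole2, Rfc3 and Lig1, so 4 of the 5 MCM genes with a listed start held them. The strings overlap one another, since TTTCGCGC read on one strand can share letters with TTTGGCGC on the other, and 5 genes had 2 matches or more. Of 21 matches in these genes, 14 (66.7%) lay from 60 bases before to 50 bases after the start, against 36.1% of 642 matches over all protein-coding genes. The letters CCAAT, the core of NF-Y sites, stood in 23 of 37 genes (62.2%) and in 42.3% of all genes. The EBF1 motif was in 1 of 37, the X-linked polymerase gene Pola1 (2.70%), and in 1.12% of all genes. These promoters were also rich in G and C, with a median of 61.8% and 23 CpG pairs per window, against 56.3% and 13 over all genes and 61.0% and 21 over genes with a start peak in both lists. A match is a stretch of letters and not a measured binding site.

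**Figure D1:**
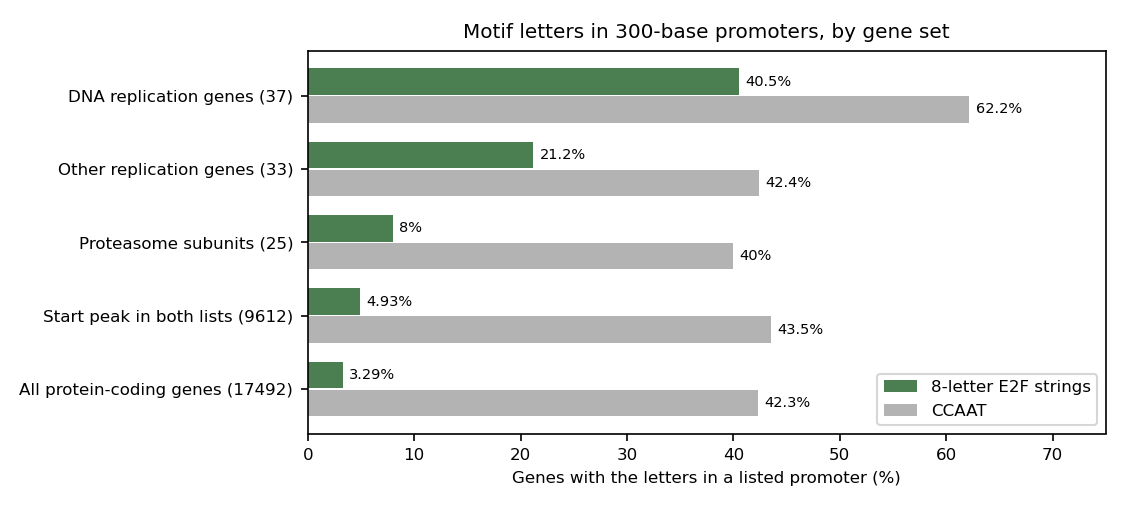
Share of genes, in percent on the horizontal axis, whose listed promoter holds an 8-letter E2F string (green) or CCAAT (grey), for 5 gene sets with the number of genes in parentheses. The E2F share is 40.5% in DNA replication genes and 3.29% in all protein-coding genes, while the CCAAT shares lie between 40.0% and 62.2%.

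The 4 promoters below carry such letters and belong to the genes on which the peak results turn: Mcm6, whose peak was among those shorter in Early-B cells; Mcm5, whose peak hardly differed in length; Orc1, whose start lies inside its annotated span; and Pole2, whose peak length differed most between the lists. They are printed 5′ to 3′ on the strand of the gene, with the E2F strings, or their reverse complements, in capitals.
Mcm6, chr1:128359656-128359955, minus strand: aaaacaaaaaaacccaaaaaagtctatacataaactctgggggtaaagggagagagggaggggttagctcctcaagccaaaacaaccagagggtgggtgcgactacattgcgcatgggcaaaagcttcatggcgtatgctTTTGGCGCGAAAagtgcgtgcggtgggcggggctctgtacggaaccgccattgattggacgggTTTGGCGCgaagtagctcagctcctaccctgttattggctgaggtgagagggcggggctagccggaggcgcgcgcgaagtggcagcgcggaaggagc
Mcm5, chr8:75109259-75109558, plus strand: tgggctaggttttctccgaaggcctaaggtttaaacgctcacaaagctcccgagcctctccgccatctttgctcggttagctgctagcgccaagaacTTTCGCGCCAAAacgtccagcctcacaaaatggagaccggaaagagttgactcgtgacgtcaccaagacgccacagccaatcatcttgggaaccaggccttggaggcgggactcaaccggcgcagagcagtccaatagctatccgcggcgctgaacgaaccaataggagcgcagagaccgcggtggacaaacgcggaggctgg
Orc1, chr4:108579204-108579503, plus strand: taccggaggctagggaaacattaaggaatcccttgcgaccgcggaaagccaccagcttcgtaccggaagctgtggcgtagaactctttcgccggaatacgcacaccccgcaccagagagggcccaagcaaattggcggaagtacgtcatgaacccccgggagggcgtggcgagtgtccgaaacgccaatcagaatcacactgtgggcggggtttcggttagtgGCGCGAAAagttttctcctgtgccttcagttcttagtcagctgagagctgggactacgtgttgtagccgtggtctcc
Pole2, chr12:69228141-69228440, minus strand: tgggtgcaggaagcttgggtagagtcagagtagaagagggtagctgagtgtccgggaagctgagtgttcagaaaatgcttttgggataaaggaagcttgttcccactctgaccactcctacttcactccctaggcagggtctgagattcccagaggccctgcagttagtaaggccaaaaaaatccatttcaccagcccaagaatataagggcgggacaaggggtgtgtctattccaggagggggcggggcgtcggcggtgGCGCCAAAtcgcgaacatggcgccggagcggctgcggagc
In Mcm6 and Mcm5 the run of capitals is 12 letters long because 2 strings on opposite strands share letters.

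Peaks at the DNA replication genes were slightly longer and lower in the Early-B list, as were those of protein-coding genes at large. Among the 42 genes with an end peak in both lists, the most significant peak had a median length of 3440 bp in Early-B cells and 3075 bp in progenitors, and a median pileup, a signal value of the authors' peak caller, of 134.8 in Early-B cells and 163.6 in progenitors. Whether that value is the height at the top of a peak or an average over its length is not stated. Over the 11710 protein-coding genes in both lists the medians were 3223 bp and 2830 bp, with pileups of 119.8 and 154.0. The Early-B over progenitor length ratio had a median of 1.11 in the DNA replication genes and 1.08 over all genes. The peak was longer in Early-B cells at 29 of 42 genes (69.0%), against a background of 64.4%.

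A length ratio of at least 1.5, the fold used here to call a difference, was found at 3 of 42 genes (7.14%), where 15.4% of all genes reached it, and a peak at least 1.5 times as long in progenitors at 1 (2.38%), against 6.01%. The pileup ratio had a median of 0.819, against 0.780 over all genes, and the middle range of genes, from the first to the third quartile, ran from 0.752 to 0.863 in DNA replication genes and from 0.681 to 0.882 over all. The pileup was higher in Early-B cells at 3 genes (7.14%), against 14.2%. Pole2 was among them only through a pairing of different peaks, described below. At 4 genes (9.52%), against 22.9%, the pileup was at least 1.5 times as high in progenitors. None was at least 1.5 times as high in Early-B cells, where 5.06% of all genes were. The deposited pileups are not known to be scaled between the lists, and in bulk cells fewer marked cells and less mark per cell cannot be told apart. After dividing each ratio by the all-gene median of 0.780, a log2 shift of -0.36, the median of the DNA replication genes was 1.05, and 28 of 42 lay above 1, which is then the median of all genes by construction. None passed a fold of 1.5 either way, against 8.61% of all genes upward and 11.8% downward. The shares over all genes include weak peaks, with pileups down to 10 in Early-B cells and 10.7 in progenitors. Among the DNA replication genes the lowest were 71.2 and 101. The part of weak peaks in the gaps between the shares was not tested.

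The gene-end rule takes a peak from either end of a gene, so the same values were taken at the listed starts. The length ratio at 37 starts had a median of 1.13, against 1.08 over all 9612 genes with a start peak in both lists, and 28 of 37 (75.7%) were longer in Early-B cells, against 64.2%. At least 1.5 times as long in Early-B cells were 3 (8.11%), against 14.9%, and at least 1.5 times as long in progenitors were 0, against 5.84%. The pileup ratio at the starts had a median of 0.811, against 0.776 over all genes; 1 gene was higher in Early-B cells, against 13.5%, and 4 (10.8%) were at least 1.5 times as high in progenitors, against 23.0%. These shares of the DNA replication genes rest on a few genes each and were not tested against the background. The counts by role below rest on fewer genes still. They stand beside 64.2% of all genes with the longer start peak in Early-B cells, and 8317 of 9612 with the lower pileup there.

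**Figure D2:**
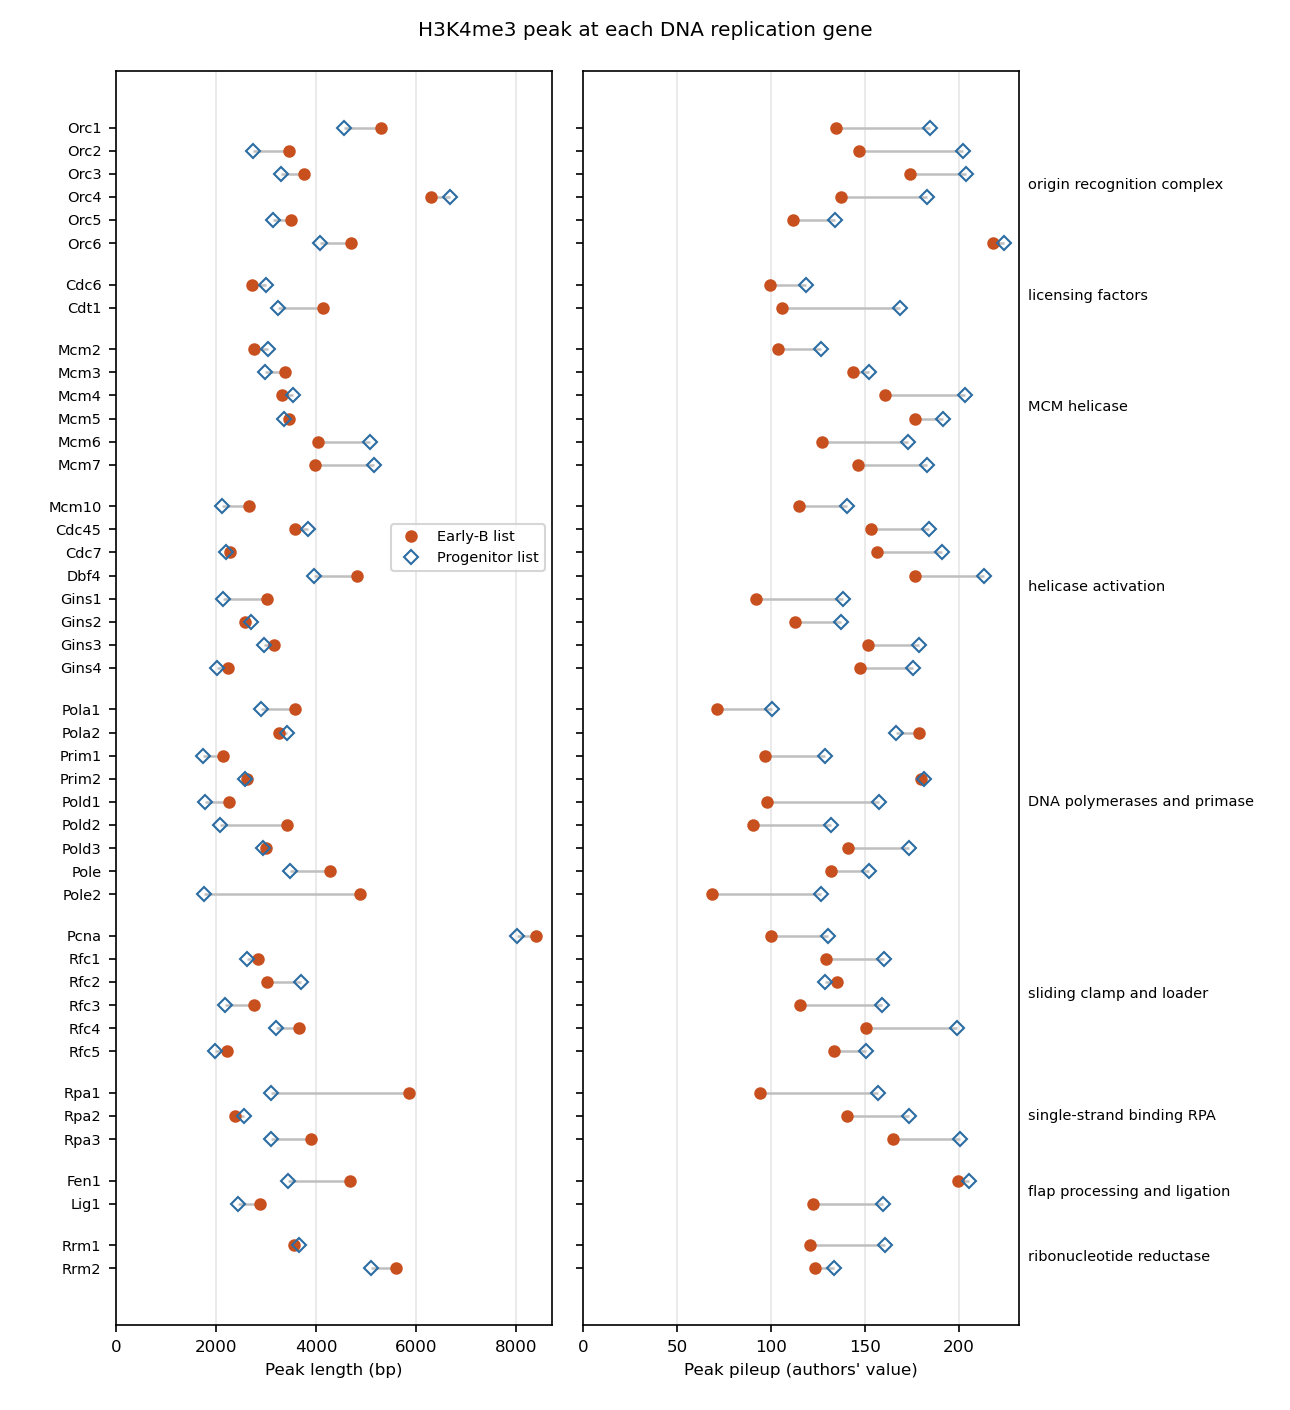
Length in bp (left panel) and the authors' pileup (right panel) of the peak at each of the 44 DNA replication genes, grouped by role, with the Early-B list as filled circles and the progenitor list as open diamonds, 1 value per list. The peak is that at a listed start for 37 genes and that at a gene end for the 7 without one. Of 44 peaks, 32 are longer in the Early-B list and 42 have the lower pileup there. Over all 9612 genes with a start peak in both lists, 64.2% are longer in the Early-B list and 8317 have the lower pileup there.

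Origin recognition came first in order of action. Orc1 to Orc6 encode the complex that marks origins and helps load the helicase. At the listed starts their peaks ran from 3452 to 6314 bp in Early-B cells and from 2743 to 6683 bp in progenitors, and 5 of 6 were longer in Early-B cells. Orc1, the largest subunit and an ATPase, had a peak of 5306 bp with pileup 134 in Early-B cells and 4565 bp with pileup 184 in progenitors, with ratios of 1.16 and 0.729. The exception in length was Orc4, at 6314 bp in Early-B cells and 6683 bp in progenitors; its span overlaps that of Mbd5 by 3404 bp, and its peak belonged to both genes in both lists. Orc6 had the highest pileup of the whole list, 218 in Early-B cells and 224 in progenitors, over a peak it shared with Vps35, whose span begins 114 bp away.

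The licensing factors Cdc6 and Cdt1 bring the MCM ring to ORC. At the start of Cdc6 the peak was 2714 bp long with pileup 99.6 in Early-B cells and 2998 bp with pileup 119 in progenitors. At Cdt1 it was 4134 bp with pileup 106 in Early-B cells and 3247 bp with pileup 169 in progenitors. The length ratios were 0.905 for Cdc6 and 1.27 for Cdt1, so these partners lay on opposite sides of 1, while Cdt1 had one of the lowest pileup ratios of the list, 0.627.

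The 6 genes of the MCM helicase, the ring that unwinds DNA, were the role in which the Early-B peak was most often the shorter one. Its median length ratio was 0.920 and 2 of 6 peaks were longer in Early-B cells. Mcm7 had 3982 bp with pileup 146 in Early-B cells (chr5:138169452-138173433) and 5173 bp with pileup 183 in progenitors (chr5:138168624-138173796), the lowest length ratio at a start, 0.770. Mcm6 had 4051 bp with pileup 127 in Early-B cells and 5084 bp with pileup 173 in progenitors, a ratio of 0.797. Neither passed a fold of 1.5. Mcm2 had 2755 bp with pileup 104 in Early-B cells and 3049 bp with pileup 127 in progenitors. Mcm4, described at its gene end, had 3313 bp with pileup 161 in Early-B cells and 3540 bp with pileup 203 in progenitors. Both were slightly shorter in Early-B cells, with ratios of 0.904 and 0.936. Mcm3 had 3378 bp with pileup 144 in Early-B cells and 2989 bp with pileup 152 in progenitors. Mcm5 had 3463 bp with pileup 177 in Early-B cells and 3365 bp with pileup 192 in progenitors. All 6 had the lower pileup in Early-B cells. The peak of Mcm4 also reached the end of Prkdc, 43 bp away, and that of Mcm7 reached Ap4m1, whose span overlaps its own by 91 bp.

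The 8 helicase activation genes had a median length ratio of 1.09, and all 8 had the lower pileup in Early-B cells. Gins1, a subunit of the GINS complex that joins Cdc45 and MCM, stood furthest out, at 3030 bp with pileup 91.9 in Early-B cells and 2150 bp with pileup 138 in progenitors. Its length ratio of 1.41 lay just under a fold of 1.5, and its pileup ratio of 0.665 lay just past it. The other subunits Gins2, Gins3 and Gins4 had length ratios of 0.956, 1.07 and 1.12. Dbf4, which activates the kinase Cdc7, had 4816 bp in Early-B cells and 3958 bp in progenitors, over a peak shared with Slc25a40 on the other strand, 4 bp away.

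At 8 of 9 genes of the polymerases and primase the peak was longer in Early-B cells, and the median length ratio was 1.23. Pole2, the second subunit of the leading strand polymerase epsilon, had at its start 4879 bp with pileup 68.7 in Early-B cells (chr12:69224689-69229567) and 1761 bp with pileup 127 in progenitors (chr12:69226853-69228613), a peak shared in both lists with Klhdc1, whose span overlaps its own by 477 bp. Its ratios of 2.77 in length and 0.542 in pileup were the most extreme of the 37 genes with a listed start. Pold2, a subunit of polymerase delta, had 3427 bp with pileup 90.3 in Early-B cells (chr11:5876406-5879832) and 2074 bp with pileup 132 in progenitors (chr11:5876883-5878956), a length ratio of 1.65. Pold1, the catalytic subunit of the same enzyme, had 2266 bp with pileup 98.0 in Early-B cells and 1783 bp with pileup 157 in progenitors, ratios of 1.27 and 0.623. Pola2, the accessory subunit of polymerase alpha, was the reverse case in length and pileup: 3263 bp with pileup 179 in Early-B cells and 3427 bp with pileup 167 in progenitors. Its pileup ratio of 1.07 was the highest at a listed start. In fold enrichment, a ratio to background, Pola2 was not reversed, with 18.4 in Early-B cells and 20.7 in progenitors. That value was lower in Early-B cells at all 37 listed starts, and at 8287 of 9612 over all genes. Prim2, the large primase subunit, differed little in pileup, with 180 in Early-B cells and 181 in progenitors, but its fold enrichments were 19.2 and 22.8. The lowest progenitor pileup of the list, 101, was at Pola1 on the X chromosome, where the Early-B value was 71.2.

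Pcna, the sliding clamp that holds polymerases on DNA, had the longest start peak of the list, 8401 bp with pileup 100.04 in Early-B cells and 8036 bp with pileup 130 in progenitors. In both lists it covered 100% of the gene, and it also reached Cds2 and Tmem230, 157 and 226 bp away. Of the 5 subunits of the clamp loader, Rfc2 had the peak shorter and higher in Early-B cells, 3021 bp with pileup 135 against 3711 bp with pileup 128 in progenitors. Rfc3, Rfc4, Rfc5 and Rfc1 had start peaks longer in Early-B cells, with length ratios of 1.26, 1.14, 1.13 and 1.09.

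Rpa1, the large subunit of the single-strand binding protein, had 5874 bp with pileup 93.9 in Early-B cells (chr11:75343709-75349582) and 3105 bp with pileup 157 in progenitors (chr11:75346285-75349389). Its length ratio of 1.89 and pileup ratio of 0.599 set it apart from Rpa2, at 0.933 and 0.811, and Rpa3, at 1.26 and 0.823. Lig1, the ligase that seals lagging strand fragments, had 2879 bp with pileup 122 in Early-B cells and 2434 bp with pileup 160 in progenitors. Fen1, the nuclease that trims their flaps, had 4681 bp in Early-B cells and 3443 bp in progenitors, with pileups of 199 and 205. Rrm2, the cell cycle regulated subunit of ribonucleotide reductase, had 5597 bp with pileup 123 in Early-B cells and 5105 bp with pileup 134 in progenitors, and the peak covered 66.3% of the gene in Early-B cells and 56.5% in progenitors. Rrm1, its partner, had a length ratio of 0.977.

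**Figure D3:**
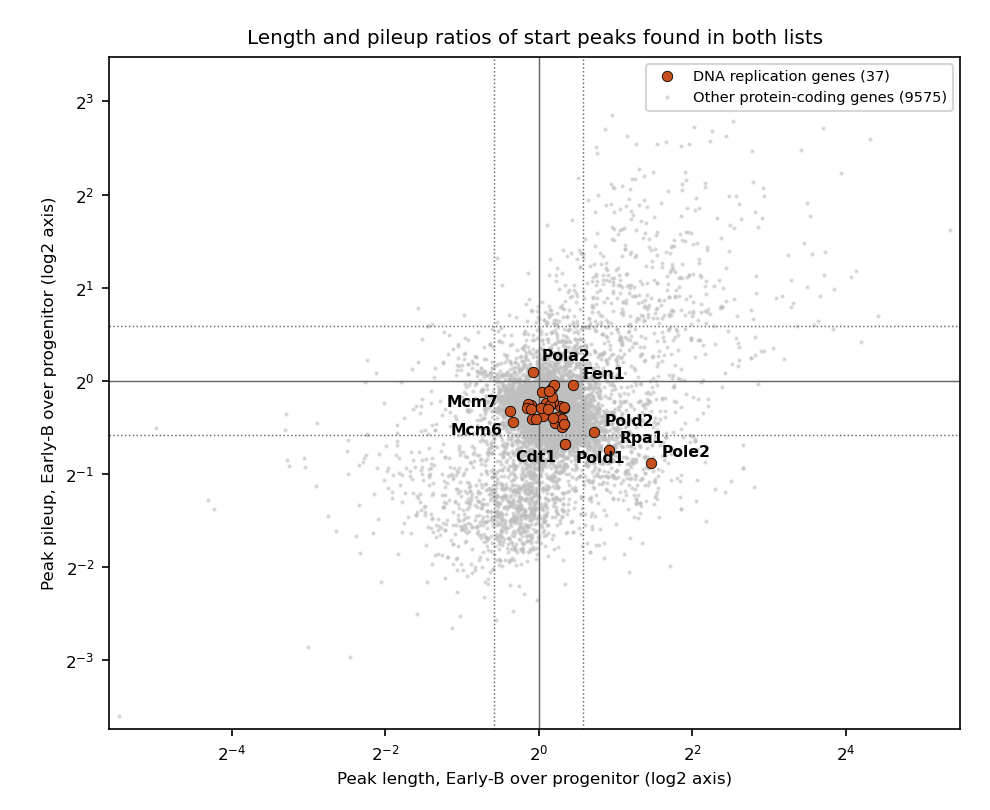
Early-B over progenitor ratio of peak length (horizontal) against that of pileup (vertical), both on log2 axes, for the 37 DNA replication genes (orange) and the other 9575 protein-coding genes (grey) with a start peak in both lists; solid lines mark equal values and dotted lines a fold of 1.5. Pole2, Rpa1 and Pold2 lie past the length fold on the right with pileup ratios of 0.542, 0.599 and 0.684.

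The genes with the most lengthened peaks were also among those with the lowest pileup ratios. Over the 37 starts the Spearman correlation of the length ratio with the pileup ratio was -0.39, where over all 9612 genes it was 0.17. At the gene ends it was -0.22 over 42 genes and 0.18 over all. These are descriptions across genes, which share both lists and their depth and are not replicates, and if the pileup is an average over the peak, length and pileup of a peak are not separate measures. Pileups ordered the genes alike in both lists, with a correlation of 0.87 over the 37 starts and 0.85 over all genes. The 15 genes with E2F letters and the 22 without had median length ratios of 1.14 and 1.12, and median pileup ratios of 0.765 and 0.817.

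The added length lay on both sides of the start. For the 30 genes with a single listed start, that start lay inside the peak in 30 of 30 in each list. Nearly all genes did the same: of 7613 protein-coding genes of this kind, 7384 in Early-B cells and 7308 in progenitors. At the 30 DNA replication genes the peak reached a median of 1196 bp upstream and 2118 bp downstream of the start in Early-B cells. In progenitors it reached 991 bp upstream and 1819 bp downstream. It reached further upstream in Early-B cells at 23 of 30 genes (76.7%), against 68.7% of 7613 genes of all kinds, and further downstream at 22 of 30 (73.3%), against 56.9%. The median downstream difference, Early-B minus progenitor, was 193 bp in these genes and 63 bp over all, and the upstream one 134 bp and 127 bp. The Early-B peak exceeded the progenitor one most in this direction at Rpa1 and Pole2, while at Mcm6 and Rrm1, among others, the progenitor peak reached further downstream.

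**Figure D4:**
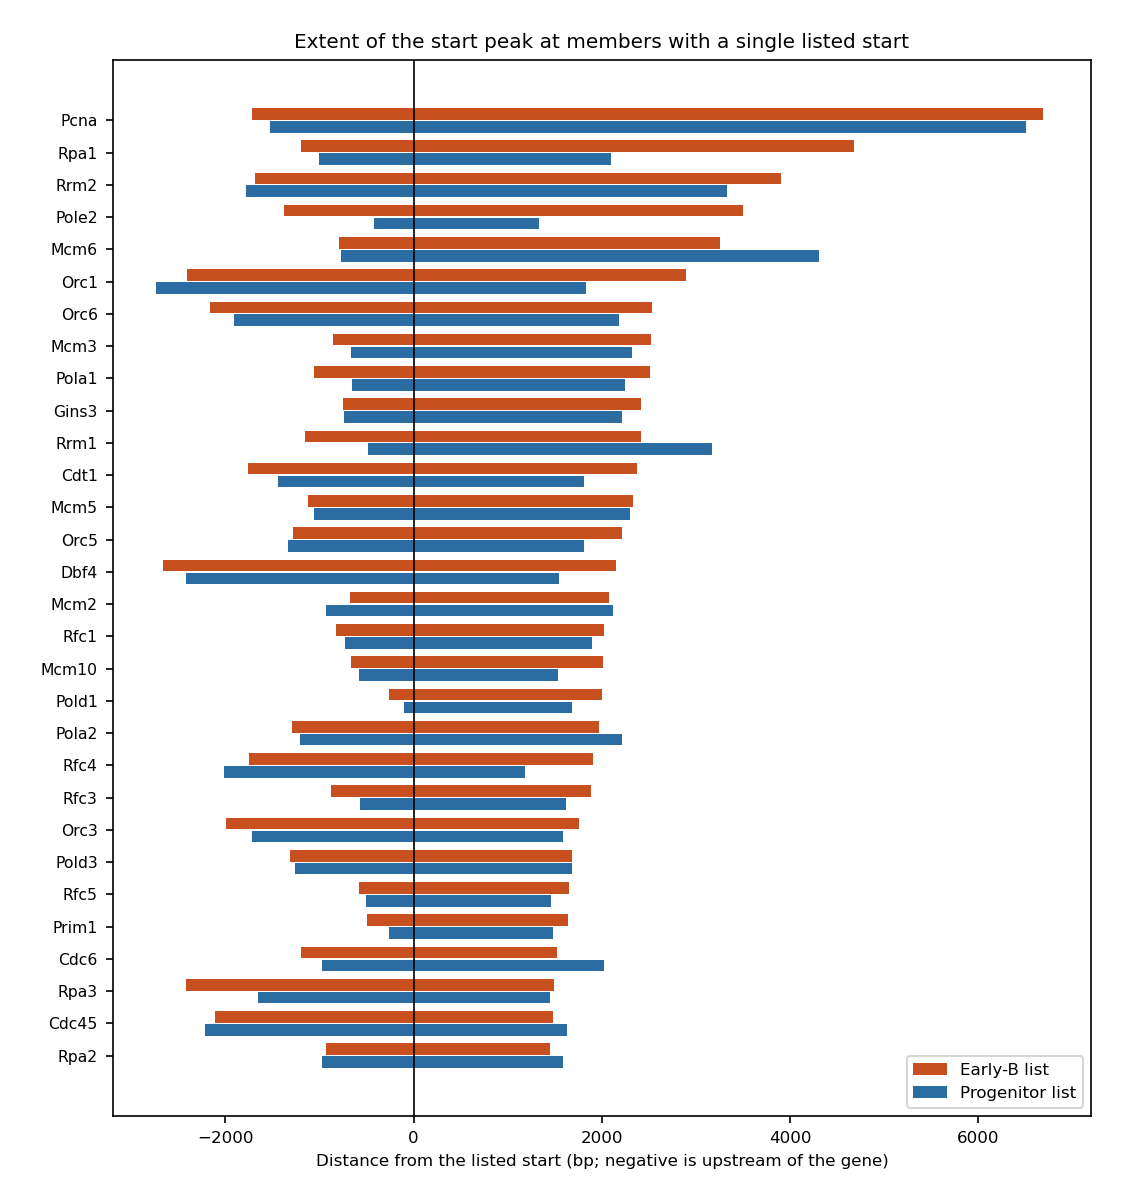
Extent of the peak around the listed start, in bp, for the 30 DNA replication genes with a single listed start, sorted by how far the Early-B peak runs into the gene; orange bars are the Early-B list and blue bars below them the progenitor list, 1 peak each. Every bar spans the start at 0, and the orange bar ends further to the right at 22 genes.

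Several of these genes sit close to another gene, and the mark cannot be given to one of them alone. The Early-B peak reached the end of another protein-coding gene at 15 of 42 genes (35.7%) and the progenitor peak at 16 (38.1%), against 32.8% and 32.0% of all genes in both lists. Besides those named above, the partners were Eif4a2 at the far end of Rfc4, Dnaaf2 at that of Pole2, Rars2 at Orc3, Ufd1 at Cdc45, Nr1h2 at Pold1, Pxmp2 at Pole, Smyd4 at Rpa1, Umad1 at Rpa3, Tmem258 at Fen1 and Zswim9 at Lig1.

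At 4 genes the end of the annotated span and the start gave different pictures. Orc1 counted as unmarked because its listed start lies 3749 bp inside the span: the peak lay 1341 bp from the gene end in Early-B cells and 1014 bp from it in progenitors, just outside the 1 kb window in the progenitor list. Rfc1 was the same case, with peaks of 2849 bp and pileup 129 in Early-B cells and 2625 bp and pileup 160 in progenitors, 2148 bp and 2246 bp from the gene end. A further peak inside Rfc1 was 2036 bp long with pileup 65.3 in Early-B cells and 1894 bp with pileup 64.5 in progenitors. Just inside the window was Rfc4, where the progenitor peak counted lay 803 bp from the gene end. For Pole2 the rule took an 11089-bp Early-B peak at the far end, chr12:69190299-69201387, with pileup 135, which also belongs to Dnaaf2, and set it against the progenitor peak at the start. This gave a length ratio of 6.30, where the start peaks alone gave 2.77, and a pileup ratio of 1.06, where the start peaks gave 0.542. The far Early-B peak overlapped a progenitor peak of 5185 bp with pileup 220 that ended outside the window. For Rfc4 the rule set the Early-B start peak of 3652 bp against a progenitor peak of 6488 bp at the far end, shared with Eif4a2, a ratio of 0.563, where the start peaks of 3652 bp in Early-B cells and 3193 bp in progenitors gave 1.14. The only gene counted as at least 1.5 times as long in progenitors was therefore a pairing of different peaks.

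**Figure D5:**
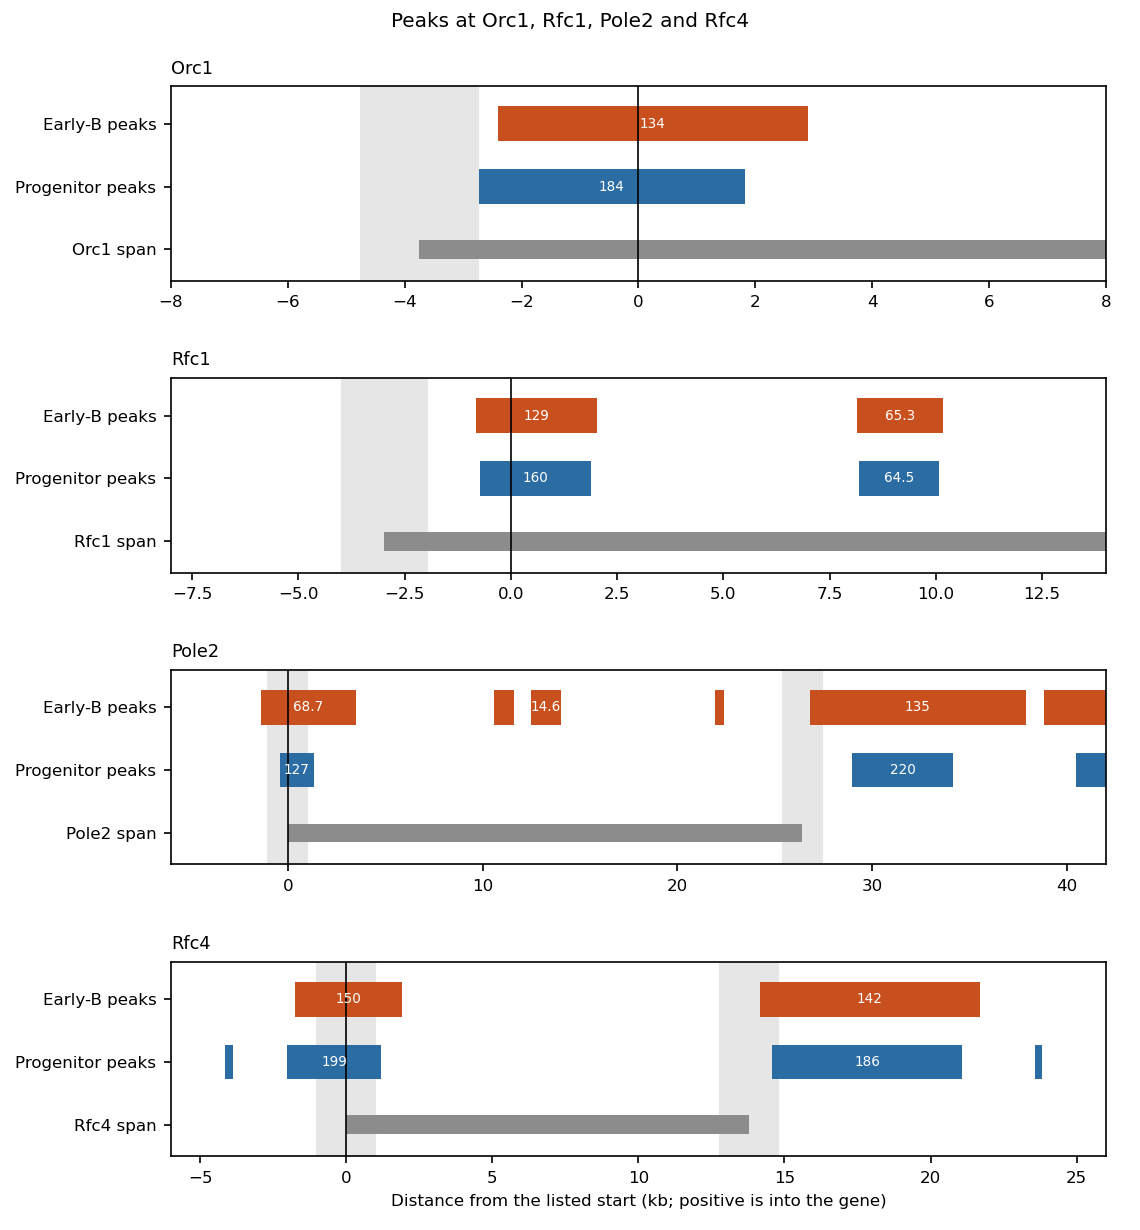
Peaks around the listed start (vertical line at 0) of Orc1, Rfc1, Pole2 and Rfc4, as distance in kb with positive values into the gene; orange boxes are Early-B peaks, blue boxes below them progenitor peaks, the grey bar the annotated span and light bands 1 kb around its ends, with the authors' pileup printed in the wider boxes. At Orc1 and Rfc1 the start peaks lie inside the span and outside the bands, and at Pole2 and Rfc4 a second, longer peak lies at the far end.

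Far ends of other DNA replication genes carried peaks too, some of them shared with neighbours. At Cdc6 the far end carried an Early-B peak of 11373 bp with pileup 34.1, which also reached Rara, a nuclear receptor for retinoic acid, and a progenitor peak of 1575 bp with pileup 11.8. That Early-B peak overlapped 2 progenitor peaks, 8908 bp in all, with a highest pileup of 76.5. At Pold1 the far end carried an Early-B peak of 7708 bp with pileup 37.8, which also reached Mybpc2 and Spib, an ETS factor of B cells. It also carried a progenitor peak of 2011 bp with pileup 17.5 that reached Spib too. The 7708-bp Early-B peak overlapped 2 progenitor peaks, 3579 bp in all, with a highest pileup of 66.0, above the Early-B value. In all, 8 Early-B and 3 progenitor end peaks lay away from a listed start. Among these were the 4 Early-B end peaks with a q above 0.05, at Rfc3, Rfc5, Rpa1 and Rpa2, and the 1 such progenitor peak, at Cdc6. Some genes have several starts, and not every one was marked: 1 of 3 listed starts of Lig1 and 1 of 2 of Orc2 lay outside the peaks of both lists.

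The other genes of the pathway gave the same classes. All 43 other replication genes, among them fork protection factors, histone chaperones, topoisomerases and nucleotide enzymes, had an end peak in both lists, with a median length ratio of 1.05 and a median pileup ratio of 0.777. Pold4, the small subunit of polymerase delta, had 6648 bp with pileup 77.5 in Early-B cells and 1643 bp with pileup 117 in progenitors. Ssrp1, a subunit of the histone chaperone FACT, had 8287 bp with pileup 115 in Early-B cells and 2921 bp with pileup 179 in progenitors. With the thymidine kinase gene Tk1 they were the 3 genes of that list at least 1.5 times as long in Early-B cells, with ratios of 4.05, 2.84 and 1.53. The lowest ratios were 0.778 for Chaf1b, a subunit of the histone chaperone CAF-1, 0.783 for the fork protein gene Tipin and 0.847 for topoisomerase Top1. At its listed start Timeless had a peak in neither list, although its gene end did in both.

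All 18 E2F and RB family genes had an end peak in both lists too, with a median length ratio of 1.01 and a median pileup ratio of 0.792. E2f2, an activating E2F, had the widest gap, 9071 bp with pileup 84.3 in Early-B cells and 3699 bp with pileup 115 in progenitors, a ratio of 2.45. E2f5 and E2f7 followed with 1.57 and 1.45. The lowest ratios were 0.749 for the repressor gene E2f6, 0.772 for the RB-binding protein gene Rbbp4 and 0.890 for Rb1, the retinoblastoma gene. At its listed start Tfdp2, a dimer partner of E2F, had a peak in the Early-B list alone, 2232 bp long with pileup 60.0.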

How the data were processed

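The 2 deposited peak lists used were 1 for Early-B cells and 1 for Ebf1-/- progenitors. The submitters' processing notes name Bowtie 1.1.2 and MACS 1.4.3 without roles; the columns, which hold no summit, look like those a later MACS writes for broad peaks, where pileup is an average. Pooling of replicates, use of input and peak settings are not stated by the labels or headers. Per the file headers, each row holds a peak's length, pileup (a signal value of the authors' peak caller) and fold enrichment, a ratio to background. The columns for −log10 p and −log10 q have damaged headers in the deposited files and were told apart by their order and values. Coordinates are mm10 and count from 1.

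Gene spans and promoters came from RefSeq (GRCm38.p6), matched by symbol for 44 of 44 genes. A peak counted for a gene when it lay within 1 kb of either end of its span, or of a listed start; of several, the one with the highest −log10 p was taken. Ratios are Early-B over progenitor. With 1 list per group no test was made, and values are read beside all protein-coding genes. Where the text names genes, they are the MCM genes, Pcna, Orc1, Cdc6, Cdt1, Rrm2 and Lig1 whatever their result, genes not in both lists, the 4 most extreme ratios each way, and genes whose start and peak lie apart; for the other lists, genes not in both and the 3 most extreme length ratios each way. Remaining names were chosen after their values were seen. The members and lists were chosen with earlier results of these data known. Overlaps used bedtools 2.31.1, the rest Python 3.11.15 with pandas 2.3.3. The placement of peaks was checked on simulated lists. The closing section gives 15 other settings.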

Additional observations from a re-analysis of the deposited data

How the results depend on the processing

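With 1 list per group and no deposited depth, the spread between replicates and counting error are unknown, and differences in depth or in how peaks were called cannot be told apart from differences between the cells. No paired analysis was possible because each group has 1 list and the lists carry no replicate number; for the same reason no replicate could be left out. Over 8 other settings of window, threshold and place, the number of DNA replication genes in both lists lay between 41 and 44, or 37 of 37 at listed starts; at a fold enrichment of at least 10, Pola1 was in the progenitor list alone. Over 12 settings the median length ratio lay between 1.08 and 1.14. Over 13 the median pileup ratio lay between 0.811 and 0.843, except that dividing by the all-gene median turned it to 1.05. Genes with a pileup at least 1.5 times as high in progenitors numbered from 0 to 4 over the same 13. With fold enrichment in place of pileup they were 2 of 42, against 2289 of 11710 over all genes. Genes at least 1.5 times as long in Early-B cells numbered 1 of 26 when peaks shared with another gene were left out (17.5% of all genes), 5 of 42 with the longest peak per gene (15.6%) and 7 of 42 with summed lengths (16.5%). With stronger peaks only, the share of all genes came closer to that of the DNA replication genes. At a −log10 p of at least 10 such genes numbered 3 of 42 (12.1% of all genes), and at a fold enrichment of at least 10, 3 of 41 (9.56%).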

Other observations

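Peaks inside the DNA replication genes and away from their ends numbered 19 in 11 genes in the Early-B list and 12 in 10 genes in the progenitor list. Both counts include the start peaks of Orc1 and Rfc1, which overlapped a peak of the other list. Of all these inside peaks, 12 Early-B peaks and 5 progenitor peaks overlapped no peak of the other list, shares of 63.2% and 41.7%. Inside protein-coding genes at large, counted by the same rule, the shares were 55.7% of 15597 Early-B and 35.9% of 11044 progenitor peaks. A q above 0.05 was given to 9 of those 12 Early-B peaks (against 51.2% of such peaks over all genes) and to 4 of those 5 progenitor peaks (against 81.2%). The strongest Early-B peak without a partner lay in Prim2, chr1:33595033-33596765, 1733 bp long with a −log10 p of 8.71, and the next in Gins1, chr2:150914841-150915877, 1037 bp long with a −log10 p of 7.40. The strongest progenitor peak without a partner lay in Cdc6, chr11:98916999-98918897, 1899 bp long with a −log10 p of 4.65. In Pole2, 3 Early-B peaks without a partner lay between its start and its far end, with pileups from 11.3 to 14.6, where the start peak had 68.7.

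Proteasome subunit genes, another set of housekeeping genes, had an end peak in both lists at 30 of 31, with a median length ratio of 1.11 and a median pileup ratio of 0.766. Psma6 had an end peak in the progenitor list alone, a weak one of 478 bp with pileup 11.3. At its listed start Psma6 had a peak in both lists, with pileups of 124 in Early-B cells and 148 in progenitors. At listed starts 25 of 25 proteasome genes were in both lists.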
